A study of Homo sapiens with 6 samples.

Results

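The 10 genes examined here encode the E-proteins TCF3, TCF4 and TCF12, the inhibitor of DNA binding proteins ID1, ID2, ID3 and ID4, and the hairy and enhancer of split-related repressors HES1, HES6 and HEY1. Their binding by N-Myc and JMJD6 was read from ChIP-seq in CHP-134 cells, an established human neuroblastoma line with MYCN amplification, cultured untreated in RPMI medium with fetal bovine serum. There were 3 samples immunoprecipitated with the NMYC antibody after formaldehyde cross-linking, and 3 with the JMJD6 antibody after DSG (disuccinimidyl glutarate) and then formaldehyde, so that antibody and cross-linking cannot be told apart. The lists hold only positions: of the peaks found in all 3 samples of a protein (common peaks), and of bound promoters and enhancers with gene names. Typical enhancers are stretches marked by acetylated histone H3K27, and super-enhancers are the long, strongly marked clusters of them. They give no peak height or value per sample, so no spread between samples could be computed and the depth behind a peak is unknown. A gene was counted as bound where a listed region named it, either as the gene of a promoter (1 kb on each side of a RefSeq start site) or as 1 of the nearest genes of an enhancer. All 10 genes were found among the 20090 protein-coding genes of the annotation, and 17 of the 10172 common N-Myc peaks lay in the regions naming them. Coordinates are 1-based on GRCh37 (hg19), and sequences are given on the plus strand.

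E-proteins are broadly expressed basic helix-loop-helix (bHLH) transcription factors that pair with tissue-specific bHLH factors and bind E-boxes, the hexamer CANNTG. ID proteins carry the helix-loop-helix but no basic region, so they take up E-proteins in dimers that do not bind DNA. HES and HEY proteins are bHLH repressors, of which HES1 and HEY1 are known as targets of Notch. HES proteins such as HES1 bind N-boxes (CACNAG) and class C E-boxes such as CACGCG. In sympathetic neuroblasts, the cells from which neuroblastoma arises, the balance of E-proteins, IDs and HES factors is known to set the pace of neuronal differentiation, and N-Myc, itself a bHLH protein, binds the E-box CACGTG as a dimer with MAX.

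The N-Myc peaks of the ID genes differed in sequence. From ID1, a stretch of the promoter peak is shown, which held no E-box of any kind, together with stretches of both downstream peaks, which did. The stretch from ID3 lies in a super-enhancer. In the ID1 promoter stretch capitals mark the N-box, and elsewhere they mark every E-box (CANNTG) and CACGCG, on either strand (CACCTG is CAGGTG and CGCGTG is CACGCG read from the other strand).
ID1 promoter peak, chr20:30192905-30193004: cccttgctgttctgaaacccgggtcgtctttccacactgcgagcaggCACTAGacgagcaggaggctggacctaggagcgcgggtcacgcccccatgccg
ID1 first downstream peak, chr20:30195472-30195571: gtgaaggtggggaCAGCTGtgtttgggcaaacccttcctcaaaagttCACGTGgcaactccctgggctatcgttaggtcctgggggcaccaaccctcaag
ID1 second downstream peak, chr20:30196102-30196201: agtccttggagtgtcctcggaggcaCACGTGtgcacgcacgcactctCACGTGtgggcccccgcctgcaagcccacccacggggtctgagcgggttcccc
ID3 super-enhancer peak, chr1:23882519-23882618: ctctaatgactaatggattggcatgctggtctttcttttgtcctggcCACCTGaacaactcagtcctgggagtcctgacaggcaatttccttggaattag

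The sequences from HES6 and the E-protein genes come from the HES6 and TCF3 promoters and from introns of TCF4 and TCF12. The intronic peaks held neither CACGTG nor CACGCG. This was not particular to introns: the ID1 promoter peak also held neither, and only 9 of the 17 peaks held at least 1 of them. Capitals mark every CANNTG and CACGCG as above.
HES6 promoter peak, chr2:239147790-239147819: tcgatggcctggCACGTGgacacgaacgtg
TCF3 promoter peak, chr19:1653130-1653229: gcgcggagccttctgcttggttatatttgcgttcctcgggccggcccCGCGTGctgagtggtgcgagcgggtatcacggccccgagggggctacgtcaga
TCF4 super-enhancer peak, chr18:52968033-52968132: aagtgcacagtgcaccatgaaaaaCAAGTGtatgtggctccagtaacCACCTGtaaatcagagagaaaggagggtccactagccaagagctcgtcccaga
TCF4 enhancer peak, chr18:53006095-53006194: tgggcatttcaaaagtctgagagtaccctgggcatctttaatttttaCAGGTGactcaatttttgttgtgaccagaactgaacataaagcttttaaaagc
TCF12 intronic peak, chr15:57425704-57425803: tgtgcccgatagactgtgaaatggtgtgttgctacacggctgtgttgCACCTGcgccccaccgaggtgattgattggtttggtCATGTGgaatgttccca

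Each of the 10 genes was named in at least 1 N-Myc region, against 37.1% of all protein-coding genes. The 18 regions were 3 promoters, 13 typical enhancers and 2 super-enhancers. The promoters were those of ID1, HES6 and TCF3, or 1 gene from each of the 3 families, against 17.6% of protein-coding genes. Typical enhancers named 8 of the 10 genes, against 31.9% of protein-coding genes, and super-enhancers named ID3 and TCF4, against 1.31%. HES6 alone was named by a promoter and no enhancer. The 13 typical enhancers were listed at a median of 117.4 kb from these genes, against 45.95 kb over all genes named in N-Myc-bound typical enhancers. With listed distances limited to 100 kb, 5 of the 9 genes with an enhancer or super-enhancer were still named, without a share of all protein-coding genes at that limit. No region bound by JMJD6 named any of the 10 genes, against 1.28% of protein-coding genes.

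**Figure D1:**
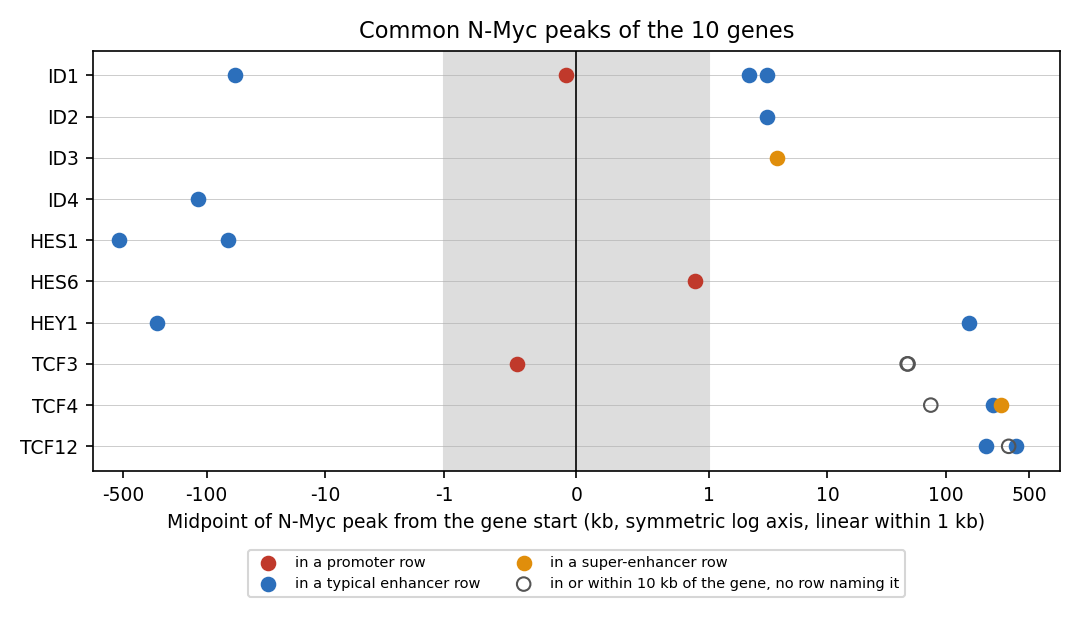
Midpoints of common N-Myc peaks relative to the canonical start of each of the 10 genes (x axis, kb on a symmetric log scale, positive values downstream in the direction of transcription), coloured by the class of listed region. Filled points are the 17 peaks in regions naming the gene, open points are peaks in or within 10 kb of the gene that no such region held, and the grey band is 1 kb on each side of the start, where ID1, HES6 and TCF3 each had a peak.

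The genes differed in how close N-Myc came to their start sites. A common N-Myc peak lay within 1 kb of the canonical start of 3 of the 10 genes, against 17.5% of protein-coding genes, and within 5 kb of 5, against 21.5%. The same 5 genes were counted out to 50 kb, a distance at which 46.9% of protein-coding genes had a peak. Within 100 kb there were 7 of 10, against 61.7%. ID4, HEY1 and TCF12 had none within 100 kb of the canonical start, and were listed through more distant regions.

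Among the ID genes, ID1 had the most N-Myc peaks. ID1 (ENSG00000125968, chromosome 20, 30193086 to 30194318, plus strand) was covered at its start by a peak of 330 bp from 30192847 to 30193176. Downstream of the gene lay a peak of 763 bp, with its midpoint 2.18 kb from the start, and a peak of 474 bp at 3.12 kb. All 3 lay in a typical enhancer of 5.40 kb, and 3.12% of the 4649 N-Myc-bound typical enhancers held 3 or more common peaks. The median length of those enhancers was 2.55 kb, and the share was not scaled to length. Both downstream peaks also overlapped the listed promoter of MIR3193, a microRNA gene. The second downstream peak held 2 copies of CACGTG, where 4.71% of all N-Myc peaks held 2 or more, and the first held 1. The promoter peak held no CANNTG, as was the case for 6.61% of all N-Myc peaks. Another peak, 57.9 kb upstream, covered the start of MCTS2 within an intron of HM13, and its region was listed as nearer to HM13 (33.1 kb) than to ID1 (57.8 kb).

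ID2 and ID3 were bound near, but not at, their promoters. The ID2 peak (chromosome 2, gene from 8818975 to 8824591, plus strand) began 2967 bp past the canonical start, beyond the end of the gene. It was narrow, at 254 bp, and 4.55% of all N-Myc peaks were as narrow or narrower. The ID3 peak (chromosome 1, gene from 23884417 to 23885992, minus strand) began 3084 bp past the canonical start, also beyond the gene. At 1312 bp it was the widest of the 17, and 99.2% of all N-Myc peaks were as wide or narrower. It was the only common peak in an N-Myc-bound super-enhancer of 18.8 kb that spanned ID3 and was listed 116 bp from it. Over its 1312 bp the ID3 peak held 5 N-boxes and 6 E-boxes, of which 1 was CAGGTG and none was CACGTG. These counts were not scaled to the width of the peak.

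ID4 (chromosome 6, 19837601 to 19842428, plus strand), the remaining inhibitor of E-proteins, was named by a single typical enhancer of 202 bp at 117.4 kb upstream. Its peak of 373 bp, from 19719888 to 19720260, lay in an intron of the long non-coding RNA gene LNC-LBCS. It held 2 E-boxes, neither of them CACGTG. No other gene was listed for that enhancer, and 65.1% of protein-coding genes had a common N-Myc peak closer to their start than ID4 did.

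HES6, which promotes neuronal differentiation and counteracts HES1, had a peak at the edge of its promoter. The peak of 205 bp, from 239147679 to 239147883 on chromosome 2, ran from 882 to 1086 bp downstream of the promoter centre, so that 119 bp of it lay inside the 1 kb limit. Its midpoint was in a coding exon of HES6 (239146908 to 239149303, minus strand), and the peak held 1 CACGTG, 24 bp from its centre. Only 0.265% of all N-Myc peaks were as narrow or narrower. Among the bound promoters that of HES6 thus lay closest to the 1 kb limit, and ID2, with a gap of 2967 bp from its canonical start, was the nearest gene outside it.

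HES1, the Notch effector that keeps progenitors undifferentiated, was named in 3 typical enhancers, where 2.40% of protein-coding genes were named in 3 or more. The enhancer of 8.79 kb over HES1 itself (chromosome 3, 193851297 to 193860089), listed 1.76 kb from the start, held no common N-Myc peak. This was so for 144 of the 4649 N-Myc-bound typical enhancers. The second, at 65.4 kb upstream, held a peak of 322 bp at the promoter of the long non-coding RNA gene LINC02028. The third was listed 542.3 kb from HES1 and 0.70 kb from OPA1, a gene for mitochondrial fusion, whose start its peak of 475 bp covered. That peak held no E-box. The nearest common N-Myc peak to the start of HES1 was therefore 65.4 kb away, and 52.4% of protein-coding genes had a nearer one.

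HEY1 (chromosome 8, 80674606 to 80680092, minus strand), a Notch-induced repressor related to HES1, was named by 2 typical enhancers that lay at other genes. The first was listed 154.8 kb from HEY1 and 1.92 kb from STMN2, a microtubule regulator of neurons, and its peak of 685 bp lay in an intron of STMN2. The second was listed 262.3 kb from HEY1 and 0.121 kb from MRPS28, a mitochondrial ribosomal protein gene, and its peak of 672 bp covered the MRPS28 start. The nearest common N-Myc peak to the HEY1 start lay 151.9 kb away. Across the 10 genes, the other listed gene was nearer in 5 of 15 enhancers and super-enhancers, and HEY1 was the only gene for which this held in all of its regions. Most enhancers were listed with a pair of genes, so that one of the pair is always the farther.

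TCF3, which encodes the E-protein isoforms E12 and E47, was the only E-protein gene bound at its promoter. Its peak of 611 bp, from 1652760 to 1653370 on chromosome 19, began 146 bp upstream of the canonical start (gene from 1609290 to 1652614, minus strand). The peak lay in both the promoter and a typical enhancer of 2.59 kb. It held 1 CACGCG, 115 bp from its centre, but no CACGTG and neither E-protein E-box (CAGCTG nor the asymmetric CAGGTG). Past the other end of TCF3, peaks of 415 and 520 bp lay within 10 kb of the gene, next to or in UQCR11, and no region naming TCF3 held them. Those peaks held 2 and 1 copies of CACGTG.

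TCF4 and TCF12, which are much longer genes (442.6 and 380.7 kb), were bound within introns and far from their canonical starts. In TCF4 (chromosome 18, 52889416 to 53332018, minus strand), a super-enhancer of 26.2 kb held a peak of 669 bp with its midpoint 287.3 kb into the gene, and a typical enhancer held a peak of 954 bp at 248.9 kb. A peak of 435 bp at 74.01 kb was in no region naming TCF4. In TCF12 (chromosome 15, 57210821 to 57591479, plus strand), an enhancer peak of 397 bp had its midpoint at 214.8 kb, and a peak of 354 bp at 334.6 kb was in no region naming TCF12. Both genes have many annotated starts, 90 in TCF4 and 25 in TCF12, and the midpoint of the TCF12 enhancer peak lay 834 bp from one of them. The last TCF12 peak, of 505 bp, lay beyond the gene in an exon of LINC00926 and held 1 CACGTG. Its region was listed as nearer to CGNL1 (63.6 kb) than to TCF12 (394.3 kb).

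The 5 intronic peaks of TCF4 and TCF12 held 31 E-boxes, from 2 to 9 each, and none held CACGTG or CACGCG. Of all N-Myc peaks, 44.4% held at least 1 of these Myc E-boxes and 93.4% held an E-box of some kind. An E-box of E-protein dimers, CAGGTG, occurred in both listed TCF4 peaks, in 2 copies each, in both intronic TCF12 peaks, in 1 copy each, and not in the unlisted TCF4 peak. It is common sequence, found in 31.4% of all N-Myc peaks and 37.98% of control windows 5 kb downstream of them. The GC content of the 5 peaks ranged from 37.2% to 51.4%, with a median of 40.7%, against a median of 53.2% for all N-Myc peaks.

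The 17 peaks had a median width of 505 bp, with an order-statistic 95% interval of 373 to 672 bp and a range of 205 to 1312 bp, against a median of 418 bp for all N-Myc peaks. Of the 17, 11 were wider than the median of all peaks. Width is the only measure of size that the lists hold, and it is not a measure of occupancy. The peaks at the ID1 and HES6 promoters were narrower than that median and the one at the TCF3 promoter was wider. Those of 330 bp or less lay at ID1, ID2, HES1 and HES6, while the widest 2 were the ID3 super-enhancer peak and the TCF4 enhancer peak.

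**Figure D2:**
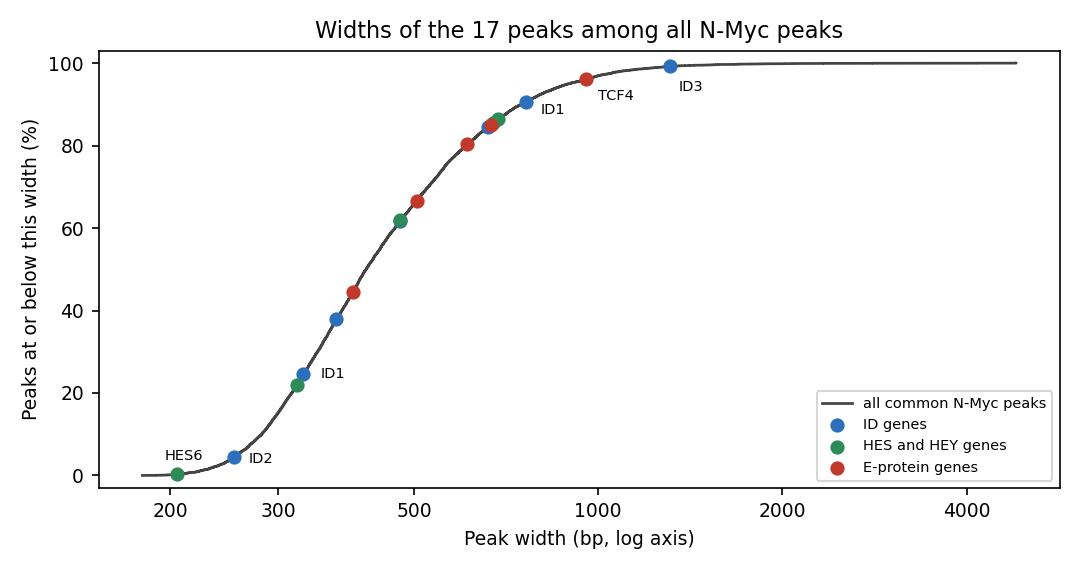
Width of each of the 17 N-Myc peaks (points, coloured by gene family) on the cumulative distribution of the widths of all 10172 common N-Myc peaks (line). The x axis is the width in bp on a log scale and the y axis the percentage of peaks at or below that width, with the narrowest point at HES6 (205 bp) and the widest at ID3 (1312 bp).

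Motifs were counted on both strands of the reference sequence of whole peaks. CACGTG occurred in 6 of the 17 peaks, or 35.3% (95% CI 14.2 to 61.7%, exact binomial, covering counting error only), and in 33.4% of all N-Myc peaks. Of 9998 control windows, each as wide as its peak and 5 kb further downstream, 5.01% held it. The windows were not matched to the peaks for GC content or for overlap with promoters. The 6 peaks were the 2 downstream of ID1, those of ID2 and HES6, the HEY1-listed peak in STMN2 and the TCF12-listed peak in LINC00926. By family, they were 3 of 7 ID peaks, 2 of 5 HES and HEY peaks and 1 of 5 E-protein peaks. CACGCG occurred in 4 of 17 peaks, or 23.5% (95% CI 6.81 to 49.9%), against 15.9% of all N-Myc peaks and 2.22% of downstream windows. The interval of the 17 peaks included the share of all N-Myc peaks for both motifs. Such intervals treat the peaks as independent draws, although 4 of them lay in regions naming ID1, so they are descriptive and no test was made.

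Motifs of the proteins that the genes themselves encode were also counted. CAGGTG occurred in 7 of 17 peaks, or 41.2% (95% CI 18.4 to 67.1%), against 31.4% of all N-Myc peaks and 37.98% of downstream windows. CAGCTG occurred in 4 of 17 peaks, or 23.5%, against 33.0% of all peaks and 18.8% of downstream windows. The N-box CACNAG occurred in 12 of 17, or 70.6% (95% CI 44.04 to 89.7%), against 61.3% and 49.8%. The general E-box CANNTG, which includes the Myc and E-protein E-boxes above, occurred in 15 of 17 peaks, against 93.4% of all peaks and 88.9% of downstream windows. Of the 69 E-boxes in the 17 peaks, the kind found most often was CAGATG or its reverse complement CATCTG, with 16, or 23.2%, against 18.1% of the E-boxes in all N-Myc peaks. CACGTG made up 10.1% of them, against 11.2%.

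**Figure D3:**
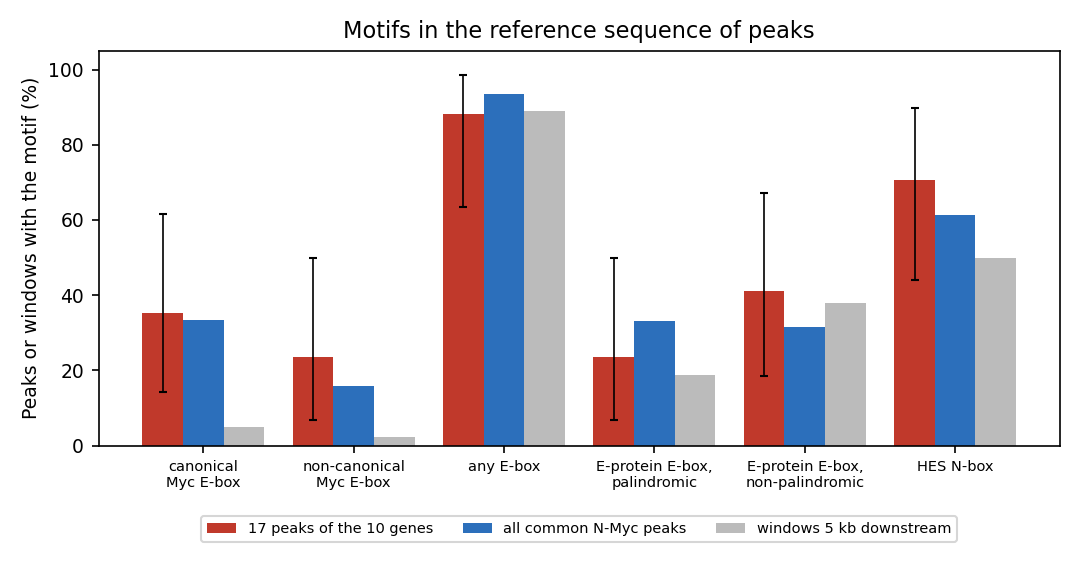
Percentage of peaks that hold each motif (y axis) for the 17 N-Myc peaks of the 10 genes (red, with exact binomial 95% intervals), all 10172 common N-Myc peaks (blue) and 9998 windows of equal width 5 kb downstream (grey). The canonical Myc E-box is CACGTG, the non-canonical one CACGCG, the E-protein E-boxes CAGCTG (palindromic) and CAGGTG, and the N-box CACNAG. The shares of all N-Myc peaks lie within the intervals of the 17 peaks, which treat these peaks as independent draws and are descriptive only.

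The start sites of the genes were then searched for the Myc E-boxes in RefSeq promoter sequences (GRCh38.p14, 250 bp before to 50 bp after the start), which matched 9 of the 10 genes. TCF12 alone held CACGTG, which 7.44% of 27305 promoters held, and HES1, TCF3 and TCF12 held CACGCG, as did 11.4%. The CACGTG of TCF12 lay at -183 bp from the RefSeq start and at -734 bp from the canonical start on GRCh37, as the 2 annotated starts differ. The nearest common N-Myc peak was 215.4 kb away. The CACGCG of TCF12, not printed below, lay 34 bp past the RefSeq start, with the nearest peak 215.2 kb away. The HES1 promoter held 2 copies of CACGCG, with the nearest peak 65.2 and 65.3 kb away. Upstream of TCF3, CACGCG lay 0.063 kb from the edge of the promoter peak. Both HES1 copies lay inside the typical enhancer of 8.79 kb over HES1, which is listed as N-Myc-bound but held no common peak. The stretches of TCF12 and HES1 are shown as sites with a Myc E-box and no common N-Myc peak nearby, with the E-box in capitals.
TCF12 promoter, chr15:57210093-57210122: aagaactagtccCACGTGcagttcggttgc
HES1 promoter, distal copy, chr3:193853805-193853834: cacgagcggtgcCGCGTGtctcctcctccc
HES1 promoter, proximal copy, chr3:193853878-193853907: acacgagccgttCGCGTGcagtcccagata

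JMJD6, an oxygenase of the jumonji family, bound none of the 10 genes by any of the lists. The shares of protein-coding genes named in JMJD6 regions were 0.627% for promoters, 0.911% for typical enhancers and 0.0747% for super-enhancers, so that a list of 10 genes with none is near the background. None of the 17 N-Myc peaks was shared with JMJD6, against 2.37% of all common N-Myc peaks. The nearest JMJD6 peak to a start site was 0.29 Mb away at ID1, 0.572 Mb at HEY1, 0.631 Mb at TCF3 and 0.949 Mb at ID2. It was 1.48 Mb away at HES1, 2.44 Mb at ID3 and 4.84 Mb at ID4. For TCF12, TCF4 and HES6 it was 8.38, 18.6 and 20.9 Mb. The median over the 10 genes was 1.96 Mb, against 2.53 Mb for protein-coding genes, while for N-Myc the medians were 34.2 and 58.4 kb. For each of the 10 genes the nearest N-Myc peak was closer than the nearest JMJD6 peak, in lists of 10172 and 561 peaks.

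**Figure D4:**
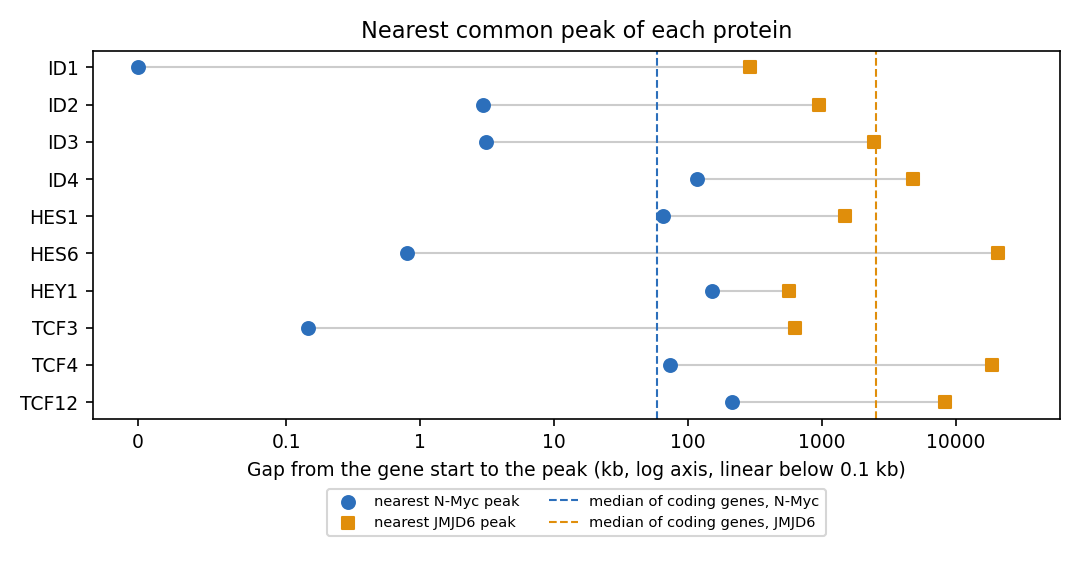
Gap from the canonical start of each gene to the nearest common N-Myc peak (blue circles) and the nearest common JMJD6 peak (orange squares), in kb on a log axis that is linear below 0.1 kb. Dashed lines are the medians over protein-coding genes, at 58.4 kb for N-Myc and 2527 kb for JMJD6, and the N-Myc peak at ID1 covers the start (gap of 0).

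Genes that act with these factors were looked up as 4 lists of 76 genes in all, and JMJD6 regions named none of them. Of 10 other HES and HEY family genes, N-Myc regions named 4, and the promoter of HELT, a HES-related neuronal repressor, was the only one bound. Of 18 Notch pathway genes 7 were named, or 38.9%, near the 37.1% of protein-coding genes. The bound promoters were those of the ligand genes DLL3 and DLL4, of RBPJ, which encodes the DNA-binding partner of Notch, and of TLE3 and TLE4, which encode Groucho co-repressors of HES proteins. These 5 of 18, or 27.8%, compare with 17.6% of protein-coding genes, and in the other lists the share of bound promoters was below that background. Of 33 tissue-specific bHLH partners of E-proteins, 19 were named, or 57.6%, against 37.1%, and 5, or 15.2%, had a bound promoter: TWIST1, NEUROD1, NEUROD2, FERD3L and MYOG. The 5 partner genes named in super-enhancers were HAND2, TWIST1, NEUROD4, NEUROD6 and FERD3L, which were singled out after their values were seen. Super-enhancers named 1.31% of protein-coding genes. In the other lists they named 2 of the 15 BMP and SMAD pathway genes, 1 of the 18 Notch pathway genes and 0 of the 10 other HES and HEY genes. TWIST1 and FERD3L are neighbours on chromosome 7 and can share regions. Of 15 BMP and SMAD pathway genes, which act upstream of ID genes, 9 were named, and 2, or 13.3%, had bound promoters: ACVR1, a BMP receptor gene, and SMAD1, its signal transducer. The nearest common N-Myc peak lay 36.4 kb from the canonical start of ACVR1 and 201.9 kb from that of SMAD1. These distances do not show whether the listed promoters of ACVR1 and SMAD1 held a common peak. Regions are given to their nearest genes, so that genes in gene-poor stretches can be named from afar, and no test was made of these counts.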

How the data were processed

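ChIP-seq was made of 6 samples, 3 per antibody. Per the labels and the study's methods, the authors aligned reads with BWA to hg19. They called peaks in each sample against input DNA with MACS2 2.1.1.20160309 and kept peaks found in all 3 samples. By those methods, the listed promoters, ROSE enhancers and super-enhancers overlap such peaks, with nearest genes from GREAT. In the N-Myc lists, however, 144 of 4649 typical enhancers and 3 of 162 super-enhancers held no common peak, and the lists do not say why. The 12 deposited lists hold positions in bp, with no score, count or coverage. Depth, height and replicate spread could therefore not be analysed.

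The 10 genes, the lists of related genes and the alternatives were chosen with earlier results of these data known. The rule named all 10 genes, related genes with a bound promoter or a JMJD6 region, and neighbours sharing a region. No set test was run. The peak sequence of ID2 is not reported here.

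Regions were matched by gene symbol, with RefSeq synonyms for older symbols (95.4% of 4150 N-Myc promoter symbols matched). Gene positions came from GENCODE version 44 lifted to GRCh37, with the Ensembl canonical transcript start as the gene's start. The build was checked on the 3 promoters of these genes, whose centres lay 1, 83 and 256 bp from an annotated start. Overlap meant at least 1 bp. Control windows that overlapped an N-Myc peak were left out. Intervals of shares are exact (Clopper-Pearson) 95% intervals, and all intervals treat the peaks as independent draws. Overlap and motif searches were tested on simulated data. Python 3.11.15, numpy 2.4.6, scipy 1.17.1, pysam 0.24.0 and matplotlib 3.10.9 were used.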

Additional observations from a re-analysis of the deposited data

How the results depend on the processing

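The count of 3 genes with an N-Myc-bound promoter remained 3 when the promoter had to hold a common peak or most of its length, and was 4 with a peak within 1 kb of any annotated start, which added TCF12. It was 7 within 5 kb of any annotated start, which added ID2, ID3, TCF4 and TCF12, and 1 (TCF3) when only peaks wider than the median were kept. Genes with many annotated starts, such as TCF4 (90) and TCF12 (25), are more easily counted by any start. The counts by any start and at the 100 kb limit below have no share of all protein-coding genes beside them, so they cannot be set against a background. The 9 genes with an N-Myc-bound enhancer or super-enhancer became 5 (ID1, ID2, ID3, HES1 and TCF3) when the listed distance was limited to 100 kb, and were 7 to 9 under the other alternatives. One of those, chosen after seeing the data, required a common peak and no nearer listed gene and gave 8, without HEY1. The share of peaks with CACGTG ranged from 23.5% with 100 bp on each side of the centre to 52.9% with CACGCG included, within the interval of the main value. It was 33.3% among the 12 peaks whose nearest coding gene start was that of one of the genes, also chosen after seeing the data. Over all gene types the background share with a bound promoter was 6.41% in place of 17.6%, and the median width of the 3 promoter peaks alone was 330 bp. The JMJD6 promoter count was 0 within 1 kb and within 5 kb. No paired analysis was possible because the lists carry no value per sample, and samples could not be left out one at a time for the same reason.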
